A study of Arabidopsis thaliana with 12 samples.

Results

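NdhN, NdhS and PIFI are 3 nuclear genes of chlororespiration and of cyclic electron flow around photosystem I. They were chosen as genes of that pathway whose array probe is assigned to a single gene, and they are 3 of 692 such probes among the 3439 probes measured. Each member had 1 probe: NdhN is AT5G58260, NdhS is AT4G23890 and PIFI is AT3G15840. Total RNA was compared between the Arabidopsis thaliana mutant pete1 and the wild type (WT), both in ecotype Columbia 0 and both cultured on MS medium, a standard plant culture medium. The mutant lacks an isoform of plastocyanin, the copper protein that passes electrons to photosystem I, and per the labels another isoform remains. Each genotype had 6 samples, numbered 1 to 6. The labels give neither tissue, plant age nor the kind of mutant allele, and they do not tell separate plants from repeat measurements. The p-values hence refer to the spread among these samples alone, which may be a technical one. Transcripts of plastocyanin itself were not analysed here, which leaves the genotype labels unchecked.

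The chloroplast NADH dehydrogenase-like (NDH) complex sits in the thylakoid membrane and moves electrons from reduced ferredoxin back to plastoquinone. Together with photosystem I it runs a cyclic electron path that builds a proton gradient without net NADPH, and in the dark it feeds the plastoquinone pool, a process called chlororespiration. Plastocyanin lies on that cycle, between the cytochrome b6f complex and photosystem I. NdhS carries the docking surface for ferredoxin, NdhN is a subunit of the stromal arm, and PIFI is an accessory protein of NDH activity named for the rise in chlorophyll fluorescence after the light is switched off.

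The deposited intensities, which are linear, differed as a whole between the genotypes. The sample medians lay between 0.279 and 0.331 in pete1 and between 0.485 and 0.627 in WT, while the sample means lay between 0.917 and 1.01 in pete1 and between 1.05 and 1.07 in WT. Samples of one genotype with consecutive numbers, that is 1 and 2, 3 and 4 or 5 and 6, were closer to each other than other samples were, with Spearman correlations over all probes of 0.955 to 0.980 against 0.849 to 0.901. Each member is therefore given as deposited, as its percentile rank among all probes of its sample, and after quantile normalisation of log2 values, the scale of the limma fit across all 3439 probes. In that fit NdhS fell and PIFI rose in pete1, and NdhN did not pass the adjusted p threshold of 0.05. These 2 calls among 3 members stand beside 21.7% of all probes called (10.7% higher and 11.0% lower). With the intensities as deposited NdhN and PIFI fell and NdhS did not pass, where 54.1% of all probes were called, 3.34% higher and 50.8% lower. Other fits give each member beside a share of all probes called of 29.7% after median centring, 20.4% with cyclic loess, 4.74% with consecutive numbers as a random block, 0.204% with their averages and 10.6% with their averages as deposited.

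NdhS, the ferredoxin-docking subunit, had a bright probe with nearly the same intensity in both genotypes. Its deposited intensity had a lowest value of 6.20, a median of 8.33 and a highest value of 9.81 in pete1, against 6.41, 8.32 and 9.21 in WT. The genotypes overlapped almost fully, and numbers 1 and 2 were the lowest samples of both. The mean was 8.13 ± 1.49 in pete1 and 8.03 ± 1.06 in WT (SD, n = 6 each; exact permutation p = 0.883, two-sided, also 0.883 after Benjamini-Hochberg adjustment over the 3 members). The limma log2 fold change as deposited was 0.0067, with a 95% confidence interval of -0.30 to 0.31. NdhS was brighter in pete1 than in WT in numbers 5 and 6 (1.2-fold and 1.13-fold) and dimmer in the other 4 numbers (0.895 to 0.967-fold).

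By rank NdhS was lower in pete1 in all 6 numbers, by small steps near the top of the scale. It ranked between percentiles 98.0 and 98.5 in pete1 and between 98.5 and 98.8 in WT, touching only where the highest pete1 sample equalled the lowest WT sample. A rank lower in pete1 in all 6 numbers was found for 15.5% of all probes. After quantile normalisation its log2 value was 2.84 ± 0.15 in pete1 and 3.20 ± 0.13 in WT (SD, n = 6 each), a log2 fold change of -0.36 ± 0.08 (SE, limma adjusted p = 0.0121). In these normalised log2 values, not in the deposited intensities, the spread of NdhS was among the smallest. On that scale 7.06% of the 595 single-gene probes without a 0 had a smaller SD, in pete1 and in WT alike. The call was lost when consecutive numbers entered as a random block (duplicateCorrelation; limma adjusted p = 0.0925), with their averages (limma adjusted p = 0.304), with cyclic loess (limma adjusted p = 0.0532) and without numbers 3 and 4, a choice made after seeing the data (limma adjusted p = 0.0778, with 20.5% of all probes called), and median centring turned the direction (log2 fold change 0.82, limma adjusted p = 0.00354).

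NdhN, the stromal arm subunit, had a lower mean intensity in pete1 than in WT, and the 6 WT samples were split among themselves. Its intensity had a lowest value of 0.257, a median of 0.391 and a highest value of 0.512 in pete1, against 0.461, 1.24 and 1.52 in WT. WT samples 1, 2, 5 and 6 had 1.52, 1.24, 1.24 and 1.41, all far above every pete1 sample. WT samples 3 and 4 had 0.477 and 0.461, inside the pete1 range. The mean was 0.399 ± 0.0870 in pete1 and 1.06 ± 0.468 in WT (SD, n = 6 each), so pete1 had 37.7% of the WT mean (exact permutation p = 0.0108, two-sided, adjusted over the 3 members 0.0162). NdhN was dimmer in pete1 in all 6 numbers, as were 52.6% of all probes. Once consecutive numbers were averaged, leaving 3 values for each genotype, the exact permutation p was 0.2, where 0.1 is the smallest possible.

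The size of the NdhN difference followed the sample numbers. In numbers 1 and 2 the mean intensity was 0.318 in pete1 and 1.38 in WT, a ratio of 0.230. In numbers 5 and 6 it was 0.488 in pete1 and 1.33 in WT, a ratio of 0.368. In numbers 3 and 4 it was 0.391 in pete1 and 0.469 in WT, a ratio of 0.834. The gap was thus wide in 4 numbers and narrow in 2, and the labels do not say what the numbers stand for. By rank, NdhN was lower in pete1 in numbers 1, 2, 5 and 6, with differences of -33.8 to -17.9 percentile points, and higher in numbers 3 and 4, by 8.43 and 8.81 points.

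After quantile normalisation NdhN had a log2 fold change of -0.67 ± 0.34 (SE, limma adjusted p = 0.179), with a 95% confidence interval of -1.42 to 0.07. Without numbers 3 and 4 of both genotypes it was -1.17, a size that the choice itself favours, since those are the numbers in which normalised NdhN was higher in pete1 (by 0.32 and 0.34). No test is given for it. As deposited, over all 12 samples, the log2 fold change was -1.28 ± 0.34 (SE, limma adjusted p = 0.00857), and this call was lost in averages of consecutive numbers as deposited (limma adjusted p = 0.122). Its log2 fold change lay below 0 under all 10 alternative fits and on leaving out each of the 12 samples. Fits that block or average the sample numbers repeat an estimate (-0.67 normalised, -1.28 as deposited), so their sign is no separate agreement. Its SD of normalised log2 values was 0.26 in pete1 and 0.82 in WT, and 26.4% of the 595 single-gene probes had a smaller SD in pete1 against 93.1% in WT.

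**Figure D1:**
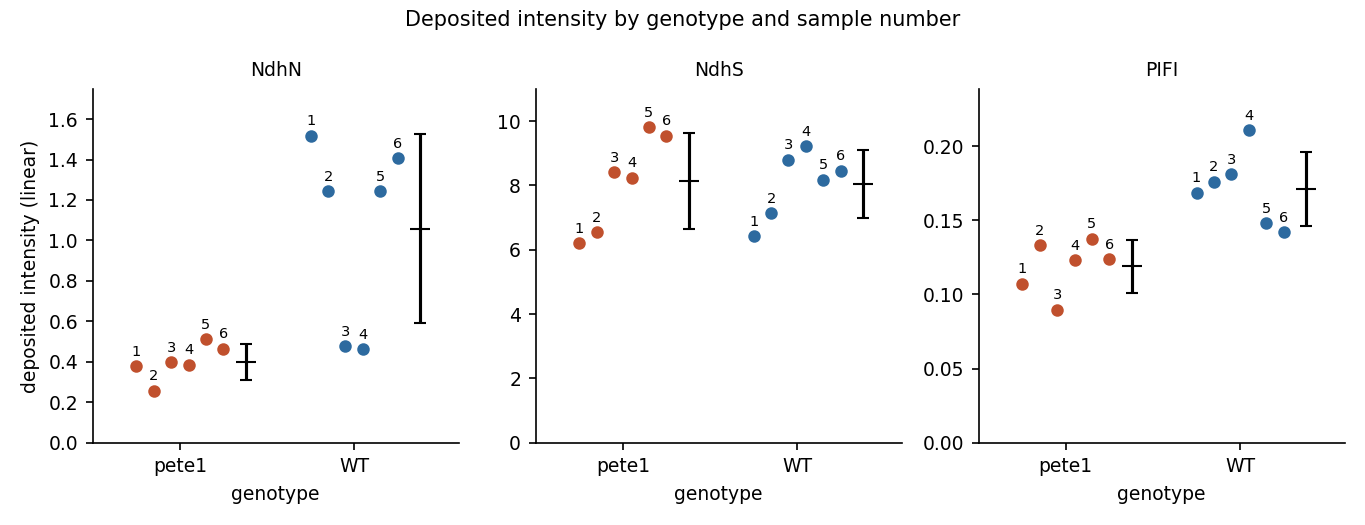
Deposited intensity (linear axis from 0) of NdhN, NdhS and PIFI in the 6 pete1 samples and the 6 WT samples, with each point marked by its sample number and the bar giving mean ± SD. WT samples 3 and 4 of NdhN lie among the pete1 samples, NdhS overlaps throughout, and every PIFI value is lower in pete1 than in WT.

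PIFI, the accessory protein, had a dim probe whose direction depended on the scale. Its deposited intensity had a lowest value of 0.0897, a median of 0.123 and a highest value of 0.138 in pete1, against 0.142, 0.172 and 0.211 in WT. The genotypes did not overlap, and 32.8% of all probes likewise had every pete1 value below every WT value. The mean was 0.119 ± 0.0178 in pete1 and 0.171 ± 0.0249 in WT (SD, n = 6 each), or 69.6% of the WT mean (exact permutation p = 0.00216, two-sided, the smallest that 6 against 6 allows, adjusted over the 3 members 0.00649). Between averages of consecutive numbers the exact permutation p was 0.1, the smallest possible there. The ratio of pete1 to WT was 0.697 in numbers 1 and 2, 0.543 in numbers 3 and 4, and 0.902 in numbers 5 and 6.

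By rank PIFI stood higher in pete1 in all 6 numbers, as did 19.5% of all probes. It ranked between percentiles 18.7 and 27.3 in pete1 and between 12.9 and 21.3 in WT. The gain was 8.84 to 13.7 percentile points in numbers 1, 2, 5 and 6 and only 1.02 and 2.47 points in numbers 3 and 4. After quantile normalisation the log2 value was -2.52 ± 0.19 in pete1 and -3.24 ± 0.37 in WT (SD, n = 6 each), a log2 fold change of 0.73 ± 0.17 (SE, limma adjusted p = 0.0119). As deposited it was -0.52 ± 0.13 (SE, limma adjusted p = 0.00531). Both calls were lost when consecutive numbers were averaged (limma adjusted p = 0.257 normalised and 0.0877 as deposited), and the normalised call was also lost under the random block, at a limma adjusted p of 0.151, and after median centring (limma adjusted p = 0.184).

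**Figure D2:**
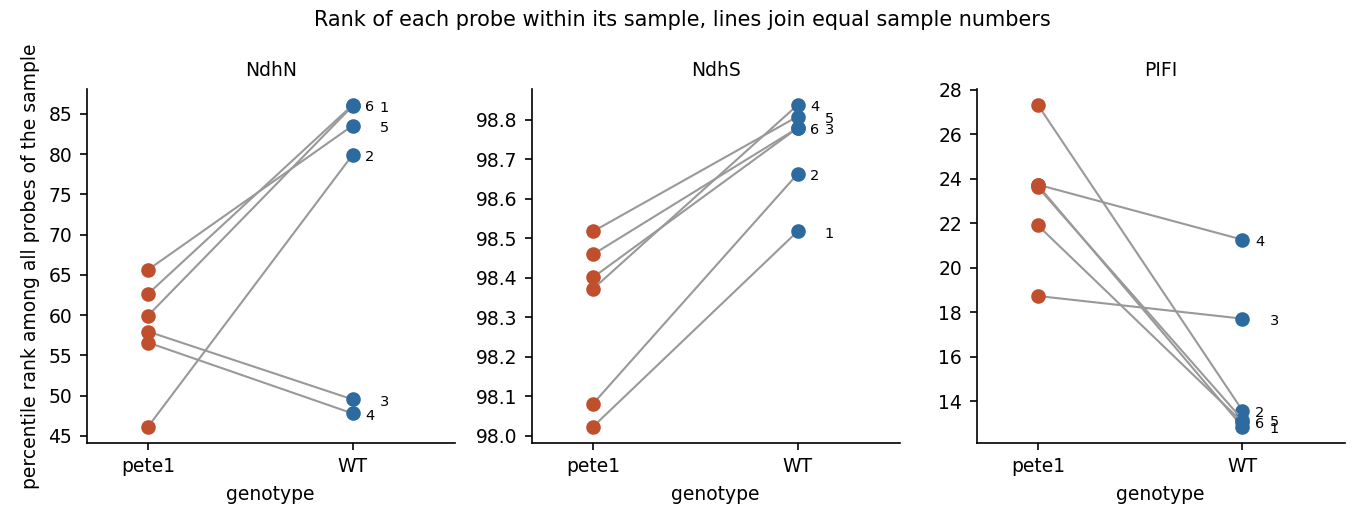
Percentile rank of each probe among the 3439 probes of its sample (vertical axes differ in range), pete1 left and WT right, with lines joining equal sample numbers. NdhS ranks lower and PIFI higher in pete1 in all 6 numbers, while NdhN ranks lower in 4 numbers and higher in numbers 3 and 4.

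The difference between genotypes varied with brightness over the whole array. The median log2 fold change as deposited was -0.73 over all probes. All probes were sorted by mean intensity into 10 bins of nearly equal size, bin 1 being the dimmest. The median log2 fold change was -1.28 in bin 2, where PIFI lies, -0.69 in bin 7, where NdhN lies, and -0.0021 in bin 10, where NdhS lies. PIFI at -0.52 was above 82.0% of the 344 probes of its bin. NdhN at -1.28 was above 12.5% of the 344 probes of its bin, and NdhS at 0.0067 above 50.7% of 343. The split of calls moved likewise, with 369 higher and 377 lower after quantile normalisation, 115 higher and 1746 lower as deposited, and 664 higher and 357 lower after median centring. Whether this shift arose in the plants or in the measurement cannot be told apart from these values, since it runs with genotype, and in whole RNA less transcript per cell and fewer cells of a type cannot be told apart either.

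**Figure D3:**
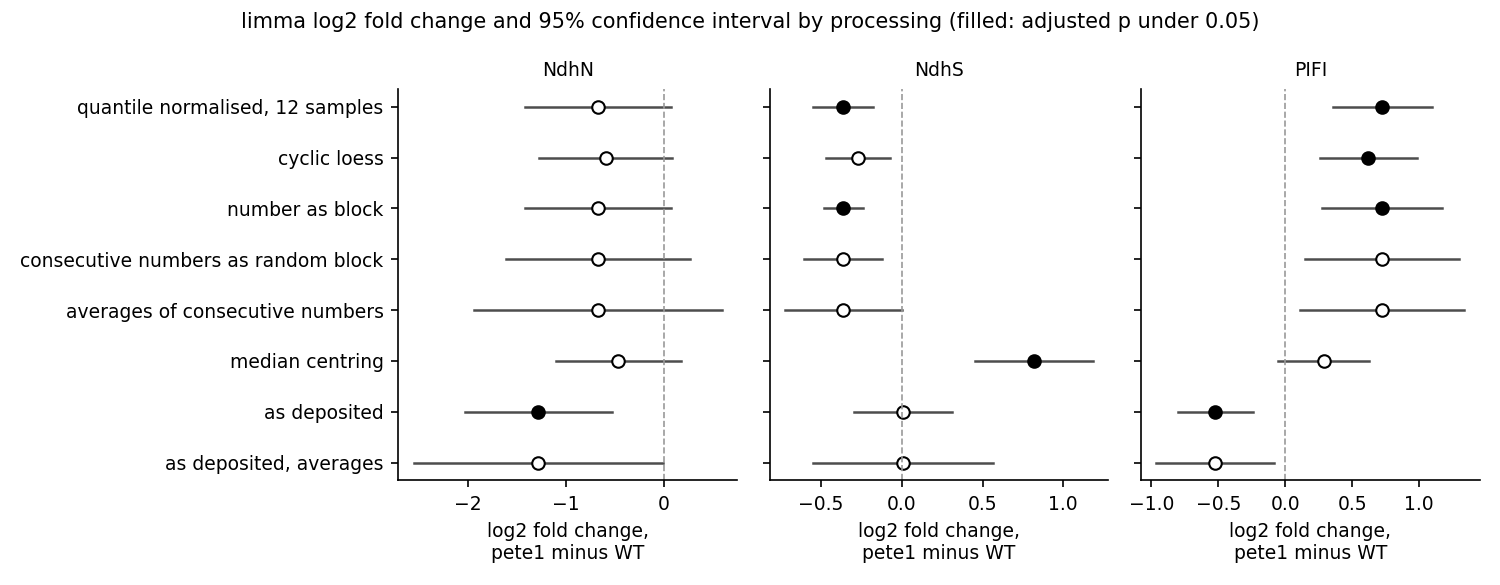
Log2 fold change, pete1 minus WT, of each member in limma with its 95% confidence interval (horizontal lines) under 8 ways of processing, with filled points at an adjusted p under 0.05. NdhN stays below 0 in all 8. NdhS lies below 0 in the first 5 and at 0.82 after median centring, and PIFI lies above 0 except at -0.52 as deposited. Rows that block or average the sample numbers repeat the point of the plain fit by design, so only their intervals and filling can differ.

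Ratios between members within a sample cancel any factor common to all probes of that sample. The shift between genotypes was not such a factor, with medians of -1.28, -0.69 and -0.0021 in the bins of PIFI, NdhN and NdhS. It hence does not cancel in these ratios, whose members differ in brightness. The log2 ratio of NdhS over NdhN ran from 4.04 to 4.67 in pete1 and from 2.08 to 4.32 in WT. It was narrow in pete1, and in WT it was high only in samples 3 and 4 (4.21 and 4.32), with the other 4 between 2.08 and 2.72. The mean was 4.36 ± 0.21 in pete1 and 3.07 ± 0.95 in WT (SD, n = 6 each), a difference of 1.29 with the higher value in pete1 in all 6 numbers (exact permutation p = 0.0173, two-sided, adjusted over 3 ratios 0.0260). After quantile normalisation, which is not a common factor, the difference was 0.31 (exact permutation p = 0.42, adjusted 0.42).

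The log2 ratio of PIFI over NdhS ran from -6.55 to -5.62 in pete1 and from -5.90 to -5.25 in WT. It was lower in pete1 in all 6 numbers, by -0.53 on average (exact permutation p = 0.0152, two-sided, adjusted over 3 ratios 0.0260). Without numbers 3 and 4, chosen after seeing the data, it was -0.41 and did not pass (exact permutation p = 0.143, adjusted 0.143). The difference was 1.09 in the opposite direction after quantile normalisation (exact permutation p = 0.00216, adjusted 0.00649). The log2 ratio of PIFI over NdhN averaged -1.73 ± 0.41 in pete1 and -2.48 ± 0.96 in WT (SD, n = 6 each), higher in pete1 in 4 numbers and lower in numbers 3 and 4, and did not pass (exact permutation p = 0.115, adjusted 0.115). After quantile normalisation that difference was 1.40 against 0.76 in the deposited intensities (exact permutation p = 0.0411, adjusted 0.0617). It passed without WT sample 3 (difference 0.97, exact permutation p = 0.0411 adjusted over 3 ratios) and without WT sample 4 (1.03, exact permutation p = 0.0281 adjusted). With averages of consecutive numbers none of the 3 ratios passed (exact permutation p of 0.1, 0.2 and 0.4, with a smallest possible value of 0.1).

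**Figure D4:**
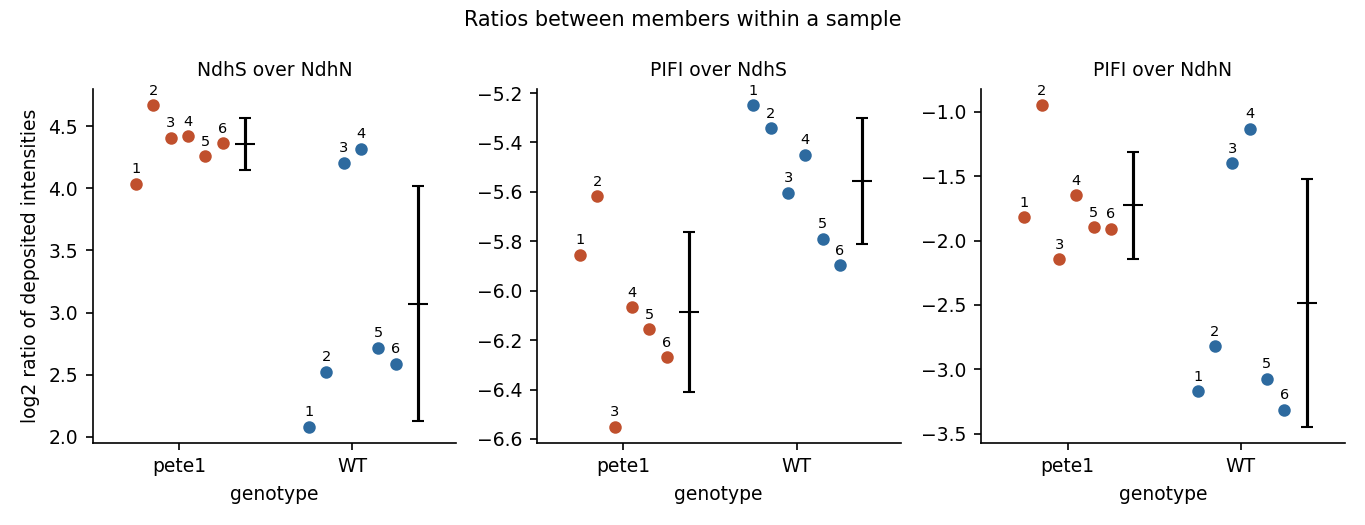
Log2 ratio of deposited intensities within each sample for NdhS over NdhN, PIFI over NdhS and PIFI over NdhN, pete1 left and WT right, points marked by sample number and bars giving mean ± SD. NdhS over NdhN lies between 4.04 and 4.67 in pete1, a range that only WT samples 3 and 4 reach.

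The other genes of the pathway were taken from lists of 61 loci whose symbols matched the gene table. The lists covered NDH subunits, NDH assembly and RNA factors, other cyclic flow proteins and linear electron transport. A search of gene symbols and synonyms for phrases naming the NDH complex, chlororespiration or cyclic electron flow was used as well. Beside the 3 members, 4 genes had a probe of their own: CRR21, CRR41, OTP85 and PSAN. CRR21 and OTP85 are pentatricopeptide repeat proteins that edit plastid ndhD transcripts, CRR41 is an assembly factor of the NDH stromal arm, and PSAN is the lumenal subunit of photosystem I next to the plastocyanin docking site. After quantile normalisation none of these 4 passed limma, so 2 of the 7 measured pathway genes were called, 1 higher (PIFI) and 1 lower (NdhS), beside 10.7% of all probes called higher and 11.0% called lower. With consecutive numbers as a random block none of the 7 passed. An unadjusted limma p under 0.05 was found there for 2 of the 7, beside 679 of all 3439 probes. After median centring 2 were called, NdhS and PSAN, both higher in pete1 (PSAN at 0.44, limma adjusted p = 0.0459). There 29.7% of all probes were called, 664 of the 3439 higher in pete1. In the quantile-normalised fit of 12 samples none of the 4 had an unadjusted limma p under 0.05, beside 1198 of all 3439 probes that did. The median log2 fold change of the 7 was 0.17, beside -0.01 for all probes. As deposited 4 of the 7 fell and none rose (NdhN, PIFI, CRR41 and OTP85), beside 50.8% of all probes called lower, with a median of -0.50 beside -0.73 for all probes. In averages of consecutive numbers as deposited none of the 7 passed limma, and 3 had an unadjusted p under 0.05, beside 1390 of all 3439 probes.

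OTP85 ranged from 0.127 to 0.230 in pete1 (median 0.189) and from 0.233 to 0.420 in WT (median 0.284). The genotypes did not overlap, as for the 32.8% of all probes with every pete1 value below every WT value. Its log2 fold change was -0.78 as deposited (limma adjusted p = 0.00667, and 0.0958 in averages) and 0.23 after normalisation (limma adjusted p = 0.253). CRR41 ranged from 0.400 to 0.599 in pete1 (median 0.505) and from 0.541 to 1.02 in WT (median 0.620). WT samples 1 and 2 stood high at 0.960 and 1.02, and the genotypes otherwise lay close. Its log2 fold change was -0.50 as deposited (limma adjusted p = 0.0369, and 0.230 in averages) and 0.17 after normalisation (limma adjusted p = 0.409).

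CRR21 ranged from 0.620 to 1.35 in pete1 (median 0.828) and from 0.818 to 1.45 in WT (median 1.01). It was brighter in pete1 in numbers 1 and 2 and dimmer in the other 4, and its log2 fold change of 0.18 after normalisation did not pass (limma adjusted p = 0.618). PSAN ranged from 1.35 to 2.43 in pete1 (median 2.05) and from 2.07 to 2.81 in WT (median 2.53). Like NdhN, PSAN had its lowest WT values in samples 3 and 4 (2.17 and 2.07). The highest pete1 values of PSAN were also in samples 3 and 4 (2.43 and 2.38), while those of NdhN were in samples 5 and 6 (0.512 and 0.464). The log2 fold change of PSAN was -0.27 after normalisation (limma adjusted p = 0.334).

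**Figure D5:**
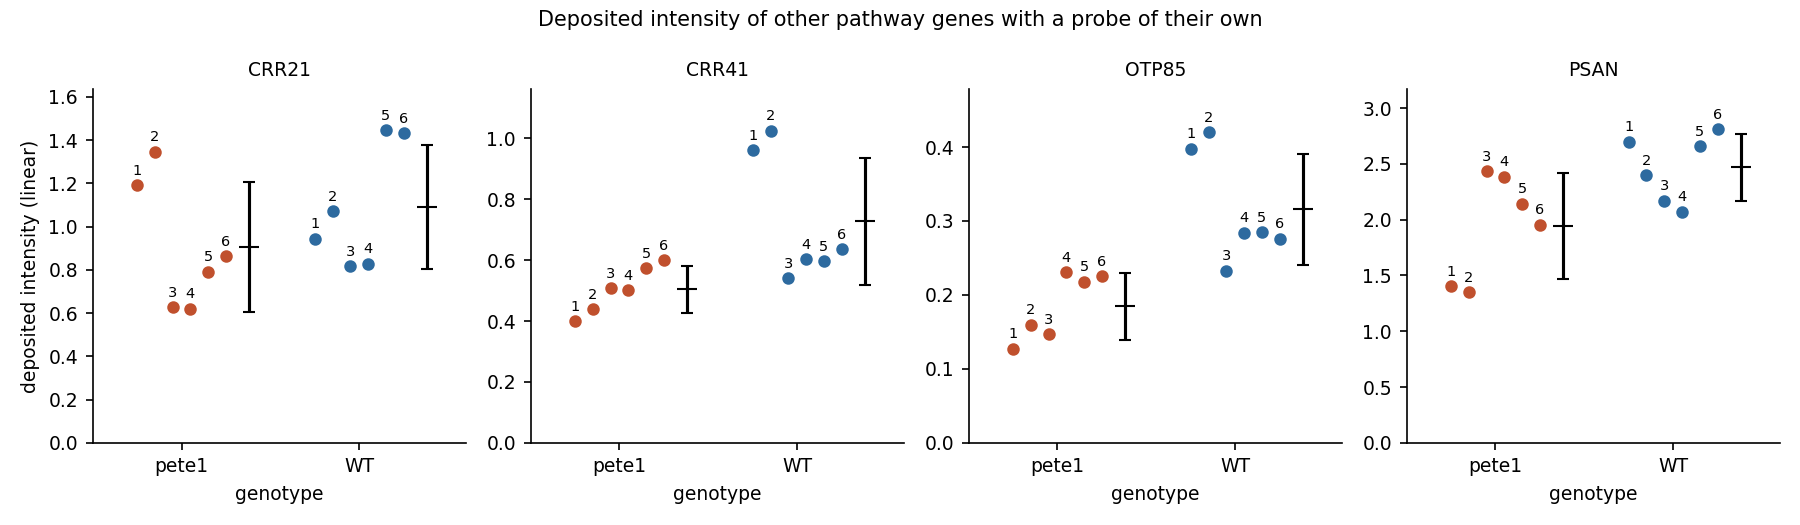
Deposited intensity (linear axis from 0) of CRR21, CRR41, OTP85 and PSAN in the 6 pete1 and the 6 WT samples, points marked by sample number and bars giving mean ± SD. Consecutive numbers lie together in most panels, and OTP85 is the only one of the 4 without overlap between genotypes.

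The single-gene probes most like each member over the 12 samples were taken among 594 other probes without a 0, by Pearson correlation of quantile-normalised log2 values. These correlations are descriptions, since the points share genotype and consecutive numbers. For NdhN they were AT1G72540 (r = 0.929), AT1G67800 (r = 0.928) and AT5G22620 (r = 0.916), and the same 3 genes led by deviations from the genotype mean (r of 0.884 to 0.910). For NdhS they were XERICO (r = 0.962), CCL (r = 0.928) and AT4G32060 (r = 0.918), and by deviations XERICO (r = 0.930), AT2G28660 (r = 0.914) and FZL (r = 0.911). For PIFI they were AT4G13550 (r = 0.926), AT4G02040 (r = 0.906) and AT1G79480 (r = 0.874), and by deviations AT2G47390 (r = 0.795), AT4G13550 (r = 0.789) and SECE1 (r = 0.783). No member was among the nearest of another. On this normalised scale NdhN and PIFI ran against each other, with r = -0.87 over the values and r = -0.89 over deviations from the genotype mean. Seen from NdhN, PIFI was at place 593 and 592 of 594. Seen from PIFI, NdhN was at place 572 and 594. WT samples 3 and 4 had the lowest normalised NdhN of WT (-1.31 and -1.38) and the highest PIFI (-2.93 and -2.63). As deposited, both genes had a lower mean in pete1 than in WT (NdhN 0.399 against 1.06, PIFI 0.119 against 0.171), so the opposition is tied to the scale.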

How the data were processed

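The deposited intensities, 1 per probe and sample, are on a linear scale with sample means close to 1, as read from the values; how the authors read, background-corrected and scaled the arrays is not given in the sources used here. Spot-level background is unknown, and precision is limited by having 6 samples a genotype. Genes come from probes with 1 gene in the platform annotation (692 of 3439; 870 had several and 1877 none), named through gene identifiers in the RefSeq table of assembly TAIR10.1, which matched 690. The smallest positive intensity (4.74e-05) was added, and log2 values were quantile normalised. They were fitted with limma 3.58.1 (statmod 1.5.0, R 4.3.3), pete1 against WT, with Benjamini-Hochberg adjustment over all 3439 probes. The fit was tested on simulated data in which samples were drawn independently. That simulation hence does not cover the likeness of consecutive numbers, whose consensus correlation in the data was 0.81. Single values had exact permutation tests over samples, two-sided, which, like the fit, take the 12 samples as independent. The likeness of consecutive numbers puts that in doubt. Deviations from the genotype mean correlated at 0.221 to 0.452 between pete1 and WT samples of equal number. Samples of unequal number were not compared, so these correlations cannot show that the numbers in the titles pair the samples. Pairing by number was assumed, and a second fit used the number as block. Named genes were the members, every list gene with its own probe and the 3 single-gene probes most like each member by either measure. The members and lists were chosen with earlier results of these data known. Of the 62 loci listed, 1 without a matching symbol was dropped. The alternatives tried are named with their effect below.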

Additional observations from a re-analysis of the deposited data

How the results depend on the processing

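The cause of a change below was not tested unless stated. Against 746 probes called, limma called 1861 as deposited, 163 with the random block, 7 with averages of consecutive numbers, and 363 with averages as deposited (added after seeing the data); leaving out 1 sample gave 550 to 722. Of the 7 pathway genes 2 were called, against 4 as deposited. With cyclic loess 1 was called, beside 701 of all 3439 probes, and on leaving out any 1 sample 2 were called. None was called with the random block, with averages or with averages as deposited. An unadjusted limma p under 0.05 was found there for 2, 2 and 3 of the 7, beside 679, 563 and 1390 of all 3439 probes. The normalised log2 fold change of NdhS (-0.36) was 0.0067 as deposited and in averages as deposited, 0.82 after median centring, and lost its call at -0.27 with cyclic loess, at -0.36 with the random block and averages, and at -0.37 without numbers 3 and 4 (added). That of PIFI (0.73) was -0.52 as deposited and in averages as deposited, and lost its call at 0.29 after median centring and at 0.73 with the random block and averages. That of NdhN (-0.67) passed at -1.28 as deposited but not at the same value in averages as deposited (limma adjusted p = 0.122); it was -1.17 without numbers 3 and 4, the numbers in which it was higher in pete1, so that its size follows from the choice. Leaving out 1 sample gave -0.41 to -0.31 for NdhS and 0.67 to 0.86 for PIFI, called in 12 of 12 fits each, and -0.89 to -0.54 for NdhN, called in none (limma adjusted p of 0.0597 to 0.313). PSAN turned to 0.44 after median centring and passed there (limma adjusted p = 0.0459). The 2 pathway genes called after median centring were NdhS and PSAN, beside 1021 of all 3439 probes. CRR21, CRR41 and OTP85 turned to -0.29, -0.50 and -0.78 as deposited and in averages as deposited.

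Divided by the sample median, the difference in intensity was 11.0 for NdhS, which passed, 0.0676 for PIFI and -0.621 for NdhN, which did not. The deposited mean of NdhS was nearly equal in both genotypes (8.13 in pete1, 8.03 in WT). The sample medians averaged 0.309 in pete1 and 0.544 in WT, so the pass of NdhS comes from the divisor and is no separate result. No share of all probes is given on this scale. The differences of NdhN (-0.659), PIFI (-0.0519) and the log2 ratios of PIFI over NdhS (-0.53) and NdhS over NdhN (1.29) lost their calls in averages of consecutive numbers, where 3 against 3 cannot reach the threshold. The ratio of PIFI over NdhS was 1.09, and that of NdhS over NdhN 0.31, after quantile normalisation, and that of PIFI over NdhN (0.76) was 1.40 without passing. Without numbers 3 and 4 PIFI over NdhS did not pass (-0.41), and PIFI over NdhN was 1.45, a size that likewise follows from the choice of numbers. Leaving out 1 sample gave differences of -0.778 to -0.567 for NdhN and -0.0578 to -0.0440 for PIFI, called in all 12, and -0.243 to 0.480 for NdhS; the ratios ran from -0.62 to -0.44 for PIFI over NdhS, 1.09 to 1.54 for NdhS over NdhN and 0.59 to 1.03 for PIFI over NdhN. The sample number as a replicate block changed no call of a member, a ratio or a pathway gene. It gave 743 probes (380 higher and 363 lower, against 369 and 377), -0.36 for NdhS (limma adjusted p = 0.00668), 0.73 for PIFI (limma adjusted p = 0.0394) and -0.67 for NdhN (limma adjusted p = 0.161). The larger offset and leaving out probes with a 0 changed no call of a member.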
